A study of Mus musculus with 48 samples.

Results

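Kidney was compared with liver, hypothalamus, testis and ovary in a microarray survey of male and female mouse tissues. Kidney makes up 12 of the 48 arrays and 6 of the 24 RNA samples, taken by the tissue named in each sample's title; every RNA sample was hybridised to 2 arrays. The kidney RNA came from 3 male and 3 female samples, as did the liver and hypothalamus RNA, and testis and ovary gave 3 samples each. Every RNA sample was a purchased pool from 10 mice, for which the labels state no strain, age, allele or treatment. They do not say whether the 3 numbered samples of a group are separate pools, so the p-values measure the spread between these samples, which may be technical. Per the protocol text the kidney, liver, testis and ovary RNA was poly(A)-selected and the hypothalamus RNA was total RNA, whereas the molecule field gives total RNA for every sample.

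The kidney filters plasma at the glomerulus and then recovers most of the filtrate along a tubule whose segments each carry their own transporters. The proximal tubule takes back glucose, amino acids, phosphate and filtered protein through a dense brush border and secretes organic anions and cations. The loop of Henle and the distal tubule recover salt, and the collecting duct sets the final water, acid and potassium content of the urine. The proximal tubule is also rich in mitochondria, burns fatty acids and makes glucose, a task it shares with the liver. In RNA from a whole organ, fewer cells of a type and less RNA per cell cannot be told apart.

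The kidney label matched its 3 defining markers. Umod, the uromodulin secreted by the thick ascending limb, had intensities of 9121, 9987 and 11800 (lowest, median and highest of the 6 kidney samples) and at most 111.3 in the other 18. Slc12a1, the Na-K-2Cl cotransporter of the same segment, read 4245, 4902 and 5697 in kidney and at most 162.6 elsewhere. Slc34a1, the proximal tubule phosphate cotransporter, read 10100, 11700 and 12860 in kidney and at most 187.6 elsewhere. All 6 kidney samples therefore lay above all 18 others for each marker, in both sexes. Most defining genes of the other tissues were low in kidney: the neuronal Snap25 had a kidney median of 11.3 against 7829 in hypothalamus, the sperm protein gene Prm1 131 against 20770 in testis, and the inhibin subunit Inha 256 against 11180 in ovary. The hepatocyte gene Alb was less uniform, at 188.2, 534 and 1710 in kidney against 19860 to 24200 in liver. Ttr, the thyroxine carrier made by hepatocytes and choroid plexus, was an exception, at 2850, 4064 and 6954 in kidney, 17590 to 21950 in liver, 8283 to 15020 in hypothalamus and at most 167.4 in the gonads. It was higher in kidney than the mean of the 4 tissues by 1.96 (SE 0.18, adjusted p 2.4e-09).

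Intensities are in array units on a linear scale with a common trimmed mean of 500 per array, and differences are on the scale log2(intensity + 48.28), which understates the change of dim genes. The 12 kidney array medians ranged from 178 to 205.2 against 163.4 to 276 over all arrays. Of 22626 probe sets, 18092 passed the filter on dim values and were tested; 10742 genes carried by a probe set with a single symbol are each represented by the brightest such probe set. Kidney samples of the same sex correlated at 0.955 to 0.975 over tested probe sets, kidney with liver at 0.735 to 0.767, with ovary at 0.745 to 0.778, with hypothalamus at 0.564 to 0.591 and with testis at 0.47 to 0.555. The 3' 18S ribosomal probe set read 421 to 621 in kidney, 143 to 195 in hypothalamus, 428 to 1041 in liver, 381 to 2272 in testis and 980 to 2195 in ovary. The 5' set read 254 to 338 in kidney, 58 to 92 in hypothalamus and 214 to 517 in ovary. The 3' over 5' ratio of Actb was 1.12 to 1.33 in kidney and 1.00 to 1.20 in the other tissues. That of Gapdh was 0.83 to 0.86 in kidney and 0.71 to 0.93 in the other tissues. The part of RNA preparation in the tissue differences was not tested.

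Against the mean of the 4 other tissues, each weighted equally, 3047 of 10742 genes were higher in kidney and 4721 were lower at an adjusted p under 0.05 (limma, Benjamini-Hochberg). Over probe sets these calls were 26.8% and 43.7% of those tested. The median difference of all tested probe sets was -0.15; centring each array on its median instead moved it by 0.10 to -0.05, and the share of calls that were higher in kidney rose from 38% to 46.2% (42.0% with quantile normalization). Against single tissues, with at least a 2-fold difference as well, 9.58% of probe sets were higher and 6.98% lower in kidney than in liver. The corresponding shares were 13.5% and 19.3% against hypothalamus, 22.3% and 17.4% against testis, and 8.45% and 12.4% against ovary.

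A gene was called kidney-high where kidney exceeded each of the 4 tissues by at least 1 log2 unit with 4 adjusted p-values under 0.05. This held for 325 genes, and the rule called 2.69% of tested probe sets. For 313 of the 325 the lowest of the 6 kidney values lay above the highest of the 18 others, an arrangement found for 4.8% of all tested probe sets. The rule chose the 325 on the same values, so this count describes them and is no separate support for the rule. The smallest of the 4 differences had a median of 1.85 and reached 6.94; it was at least 2 for 150 genes, at least 3 for 78, at least 4 for 41 and at least 5 for 15. Liver was the closest tissue for 121 of the genes, ovary for 95, hypothalamus for 58 and testis for 51. Genes just inside the rule were C1qtnf12 at 1.0 and Gdpd3 and Nudt8 at 1.00, and genes just outside were Pde9a at 0.99, Mgst3 at 0.99 and Rab20 at 0.99. Of 94 kidney-high genes with several tested probe sets, 62 met the rule with all of them and 32 did not. The opposite rule found 18 kidney-low genes, 0.149% of probe sets.

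The gene furthest above every other tissue was Dnase1, the secreted deoxyribonuclease, at 8513, 9324 and 11130 in kidney and at most 54.5 elsewhere. Its smallest difference was 6.94 (SE 0.13, against hypothalamus). Umod followed at 6.65, then Cdh16, the kidney-specific cadherin, which read 9215, 9593 and 11140 in kidney and 64.0 to 124.8 in ovary, its next highest tissue, for a smallest difference of 6.19. Acsm2, a mitochondrial acyl-CoA synthetase, differed by at least 6.16, and all 4 of its tested probe sets were kidney-high.

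The 25 genes with the largest smallest difference include the transporters Slc34a1 (phosphate), Slc13a1 (sulfate), Slc22a19 (organic anions), Slc7a9 (cystine and dibasic amino acids), Slc6a20b (imino acid family), and Slc12a1 and Slc12a3 (salt). They also include Fxyd2, the gamma subunit of the sodium pump, and Cltrn, a trafficking partner of apical amino acid transporters. Also among the 25 were the meprin subunits Mep1a and Mep1b, the aspartic protease Napsa, tissue kallikrein Klk1 and the basement membrane protein Tinag. Slc13a1 read 4813, 5421 and 6370 in kidney and at most 98.1 elsewhere. Mep1b read 2612, 3052 and 4709 in kidney and at most 14.95 elsewhere. Slc22a19 read 1658, 2299 and 3258 in kidney and at most 9.45 elsewhere. The rest of the 25 are Dnase1, Umod, Cdh16, Acsm2, the oxidase Nox4, the endocytic receptor Lrp2, the growth factor precursor Egf, the membrane protein Tmigd1, the androgen-regulated protein gene Kap, D-amino acid oxidase Dao and the glucuronosyltransferase Ugt2b38. All 25 met the kidney-high rule under every alternative run on that rule.

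**Figure D1:**
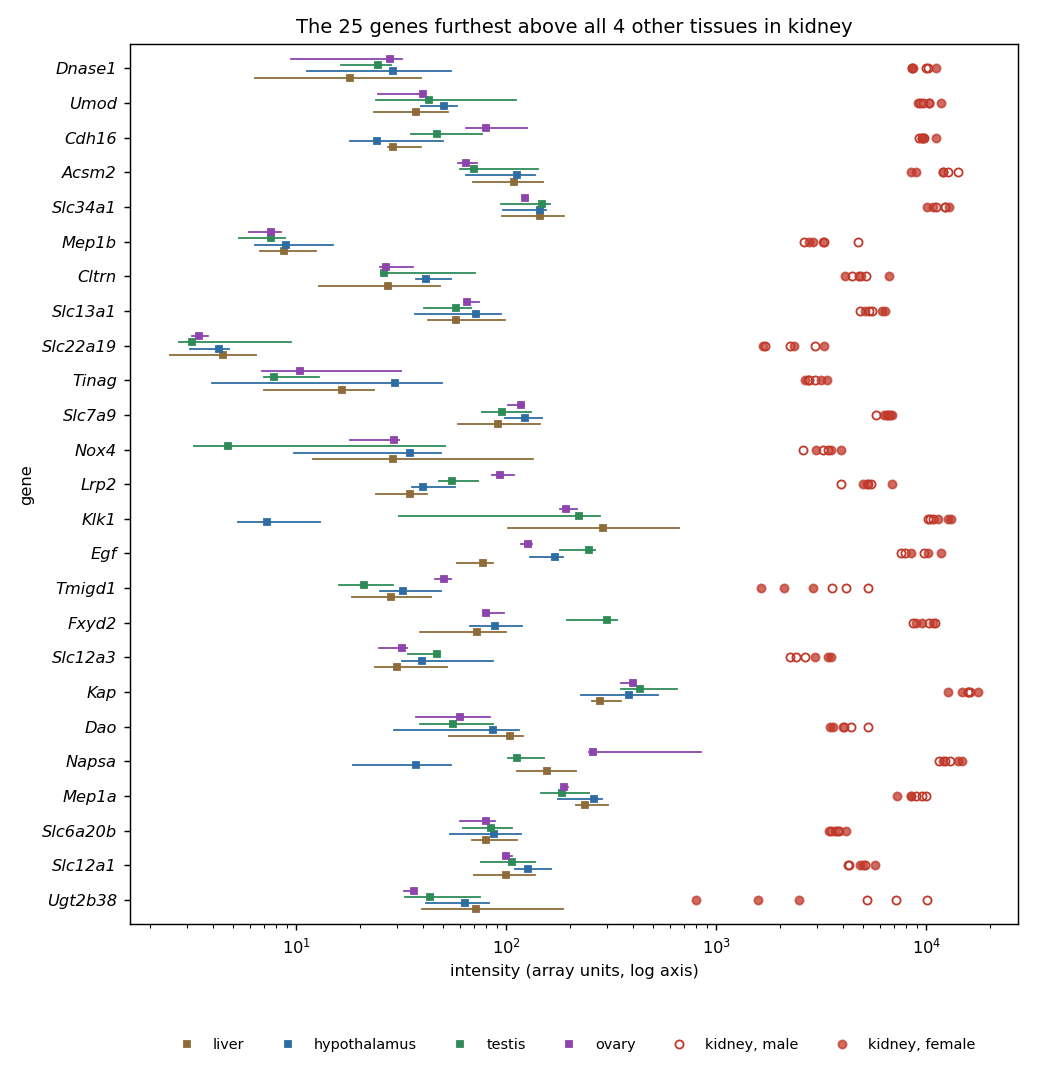
Intensity (array units, log axis) of the 25 kidney-high genes with the largest smallest difference: circles are the 6 kidney RNA samples (open male, filled female), squares and lines are the median and the range of each other tissue. The kidney points stand to the right of every other tissue in each gene, with the widest spread between the sexes in Ugt2b38, at 799.1 to 10110.

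Across all tested genes 28.4% were higher in kidney, 43.95% lower and 3.03% kidney-high, the shares to set beside each list below. Solute carriers of the proximal tubule were higher in kidney with a single exception. Of 39 tested, 38 were higher in kidney than the mean of the 4 tissues, none was lower, and 27 were kidney-high; the median difference was 3.93 against -0.15 for all tested genes. Slc5a2, the sodium-glucose cotransporter SGLT2, read 6382, 7244 and 9011 in kidney and at most 306.1 elsewhere, a difference of 5.01 (SE 0.13, adjusted p 1.32e-19). Slc17a1, a phosphate and urate carrier, differed by 5.25 and was nearest to liver, at 3.90. Slc22a6 and Slc22a8, the organic anion transporters OAT1 and OAT3, differed by 5.05 and 5.002. Slc3a1, the heavy chain that pairs with Slc7a9, read 5025, 5233 and 5697 in kidney against 764.5 to 2718 in liver, so its smallest difference was 2.12. Of the 39 genes 12 were shared with liver by the rule given with that comparison, among them Slc27a2 (5.03), Slc2a2 (3.44) and Slc37a4 (2.87), carriers of fatty acids, glucose and glucose 6-phosphate. Slc16a1, a widespread lactate carrier, gave -0.27 and did not pass the test.

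Over the whole array, 44 of 241 tested genes named Slc were kidney-high, so the solute carriers made up 13.5% of kidney-high genes and 2.24% of tested genes. The Slc22 family of organic ion transporters contributed 12 of its 18 tested members, the Slc5 family of sodium-coupled sugar and vitamin carriers 5 of 8, the Slc7 amino acid carriers 4 of 13 and the Slc13 family all 3. The claudins, which set the ion permeability of tight junctions, gave 6 of 15 and the aquaporin water channels 3 of 7. None of 46 ribosomal protein genes was kidney-high.

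A list of proteins of the brush border and the endocytic machinery that retrieves filtered protein gave much the same counts. The list is wider than this, since it also holds Napsa (6.11), Klk1 (6.04), Kap (5.23) and Keg1 (4.81), all kidney-high. Of 25 tested, 24 were higher, none lower and 18 kidney-high, with a median difference of 4.15. Lrp2, which encodes megalin, read 3934, 5253 and 6869 in kidney and at most 108.6 elsewhere. Its partner Cubn read 3659, 3819 and 4423 in kidney, with testis closest at 133.1 to 246.6, and Amn, which anchors cubilin, had a smallest difference of 3.39, also against testis. The adaptor Dab2 had a smallest difference of 1.47, against ovary, which read 1929 to 2225 where kidney read 5336 to 6738. The peptidases Enpep (2.68), Dpp4 (2.37), Anpep (1.73) and Ace (1.05) were higher without meeting the kidney-high rule; Dpp4 was shared with liver and Ace with testis. The lysosomal protease Ctsl (0.15) did not pass the test.

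Genes of the loop of Henle and the distal convoluted tubule included some lower ones. Of 26 tested, 22 were higher, 4 lower and 14 kidney-high, with a median of 2.55. Slc12a3, the thiazide-sensitive cotransporter, read 2253, 2791 and 3500 in kidney and at most 86.5 elsewhere. Egf read 7548, 9051 and 11790 against at most 263.6. The potassium channel Kcnj1 (ROMK) was spread over 443.4 to 1504 in kidney, and still all 6 values lay above the highest other value of 116.5. Cldn16, the tight junction protein needed for magnesium recovery, read 363.7, 558 and 662.5 in kidney and at most 52.1 elsewhere. The 4 lower genes were Trpm6 (-0.34), Cldn14 (-0.40), Nos1 (-0.48) and the kinase gene Stk39 (-0.82). Calb1 (3.44) and Pvalb (2.88), calcium-binding proteins of the distal tubule that neurons also express, were higher without being kidney-high.

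In the collecting duct list 22 of 24 tested genes were higher, 2 lower and 16 kidney-high, with a median of 2.44. The vasopressin-regulated water channel Aqp2 read 2229, 3463 and 5014 in kidney and at most 501.2 elsewhere. The basolateral channel Aqp3 read 1013, 1529 and 1778 in kidney and at most 108.3 elsewhere. All 3 tested subunits of the epithelial sodium channel were kidney-high, Scnn1g by 2.86, Scnn1b by 2.27 and Scnn1a by 1.78. Foxi1, the transcription factor of intercalated cells, differed by 1.69, and its known targets Slc26a4 and Slc4a1, anion exchangers of those cells, by 2.53 each. Hsd11b2, which protects the mineralocorticoid receptor from glucocorticoids, read 1065, 1434 and 1813 in kidney, with ovary closest at 505.8 to 598. The ammonia channel Rhcg was closest in testis, at 510 to 729 against 808.6 to 1688 in kidney. Krt18 (-0.45) and St6gal1 (-1.37) were lower.

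A list of pumps and channels from the nephron gave 26 higher, 7 lower and 15 kidney-high genes of 38 tested, with a median of 1.88. It includes genes of single segments, such as Slc12a1, Slc12a3, Kcnj1, Aqp2, Aqp3 and Atp6v1b1, that the lists above already count. Claudins, cadherins and other junction genes gave 21 higher, 7 lower and 10 kidney-high of 32, with a median of 1.31. The proton pump subunits Atp6v1b1 and Atp6v0a4 of the collecting duct list varied between the kidney samples. Atp6v1b1 read 812.4, 452.2 and 115.5 in male samples 1, 2 and 3 and 1164, 572.2 and 206.6 in the female samples of the same numbers. Atp6v0a4 read 1348, 593.1 and 386.4 in the male and 1545, 968 and 438.9 in the female samples. In both genes and both sexes sample 1 was the highest and sample 3 the lowest. Testis read 19.8, 290 and 412.3 for Atp6v1b1, so the groups overlap there, and its difference from the mean of 4 tissues was 2.48 (SE 0.33, adjusted p 6.68e-07).

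Of 14 tested podocyte genes 10 were higher, 3 lower and 1 kidney-high, with a median of 0.61, where 3.03% of all tested genes were kidney-high. The kidney-high gene was Podxl, the sialoprotein of the podocyte surface, at 1090, 1555 and 1866 in kidney, 585.2 to 728.1 in ovary and at most 512.2 elsewhere. Nphs1, which encodes nephrin of the slit diaphragm, read 226, 346 and 450.8 in kidney and at most 208.1 elsewhere, and missed the rule with smallest differences of 0.93 and 0.95 against testis and hypothalamus. Tcf21, a transcription factor of podocytes and stroma, was higher than the mean by 1.59 but lower than ovary by 0.59 on the log2 scale. Wt1, which podocytes share with Sertoli and granulosa cells, was lower than the mean by 0.67, with 47.6 to 96.2 in kidney, 237.8 to 368.6 in testis and 602.2 to 666.5 in ovary.

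Of 17 tested endocrine genes 16 were higher, none lower and 8 kidney-high, with a median of 2.73. Kl, which encodes the phosphate hormone coreceptor klotho, read 2690, 3897 and 4301 in kidney and at most 284.1 elsewhere, a difference of 4.93 (SE 0.11). The parathyroid hormone receptor Pth1r differed by 4.76 and the vitamin D receptor Vdr by 3.37. The enzymes that make and break active vitamin D had wide ranges in kidney. Cyp27b1, the 1-alpha-hydroxylase, ran from 58.6 to 731.3 in kidney with a median of 208, against at most 52.0 elsewhere. Cyp24a1, the 24-hydroxylase, ran from 608.5 to 2732 with a median of 1164, against at most 64.9 elsewhere. Both kept all 6 kidney values above the others.

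Transcription factors of kidney development and tubule identity had a smaller median difference than the tubule lists. Of 45 tested, 30 were higher, 5 lower and 7 kidney-high, with a median of 1.02. The kidney-high factors were Tfcp2l1 (3.31), needed for the mature collecting duct, Hoxa10 (2.75) and Hoxb9 (1.65) of the posterior body axis, Glis2 (2.07), whose loss causes a form of nephronophthisis, Pax8 (1.94) of the nephric lineage, Foxi1 (1.69) and Cux1 (1.31). Tfcp2l1 read 806.7, 1248 and 2086 in kidney, against 166.6 to 202.5 in ovary, the next highest tissue. Pax8 read 687.5, 890 and 986.6 in kidney, against 328.7 to 409.7 in ovary. Hoxa10 read 557.8, 621 and 699.6 in kidney and at most 142.2 elsewhere. Hnf4a, the nuclear receptor of proximal tubule and hepatocyte, was shared with liver, at 4222, 4916 and 5444 in kidney and 3364, 3648 and 4320 in liver, and at most 187 in the other tissues. The xenobiotic receptor Nr1i3 was lower, at 8.90 to 16.7 in kidney against 1646 to 2972 in liver.

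Promoters of kidney-high genes were searched for the recognition letters of HNF1 and HNF4, since both proteins are known regulators of proximal tubule genes. The search covered the 250 bases before each start in RefSeq windows of GRCm38.p6, on both strands, and 247 of the 325 genes had a window. The letters GTTAATNAT, which are part of the HNF1 consensus, occurred in 6 of the 247 genes (2.43%), in 56 of 8650 tested genes (0.647%), in 15 of 245 genes shared with liver (6.12%) and in 0.866% of all 27025 genes in the table. The HNF4 letters CAAAGTCCA occurred in 5 of 247 (2.02%) against 0.624% of tested genes. They occurred in 4 of 245 genes shared with liver (1.63%) and in 0.451% of all genes in the table. The letters TCAAGGTCA of the estrogen-related receptors occurred in none of the 247 and in 0.358% of tested genes. A match is a description of letters and shows no binding. The windows below are from kidney-high genes with a match, and capitals mark the matched letters on the printed strand: Cltrn (chrX:164089937-164090186, + strand) and Pkhd1 (chr1:20618058-20618307, - strand), the fibrocystin gene of polycystic kidney disease, hold the HNF1 letters 46 and 71 bases before the start. Slc3a1 (chr17:85028097-85028346, + strand) and the trehalase gene Treh (chr9:44672983-44673232, + strand) hold the HNF4 letters 31 and 63 bases before it, in Treh on the opposite strand.
Cltrn: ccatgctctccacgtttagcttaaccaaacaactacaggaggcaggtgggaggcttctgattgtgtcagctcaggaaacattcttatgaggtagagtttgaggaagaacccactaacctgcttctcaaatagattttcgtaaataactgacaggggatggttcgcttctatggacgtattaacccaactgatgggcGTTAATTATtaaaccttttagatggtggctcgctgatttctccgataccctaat
Pkhd1: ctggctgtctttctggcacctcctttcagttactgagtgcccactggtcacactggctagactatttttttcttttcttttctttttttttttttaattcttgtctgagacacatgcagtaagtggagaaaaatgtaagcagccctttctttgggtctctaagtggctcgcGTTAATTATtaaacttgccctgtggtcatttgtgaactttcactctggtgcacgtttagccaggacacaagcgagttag
Slc3a1: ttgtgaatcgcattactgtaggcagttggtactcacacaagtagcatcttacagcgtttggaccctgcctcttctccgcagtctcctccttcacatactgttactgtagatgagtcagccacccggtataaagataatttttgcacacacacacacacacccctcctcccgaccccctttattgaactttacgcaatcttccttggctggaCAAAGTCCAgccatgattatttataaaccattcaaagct
Treh: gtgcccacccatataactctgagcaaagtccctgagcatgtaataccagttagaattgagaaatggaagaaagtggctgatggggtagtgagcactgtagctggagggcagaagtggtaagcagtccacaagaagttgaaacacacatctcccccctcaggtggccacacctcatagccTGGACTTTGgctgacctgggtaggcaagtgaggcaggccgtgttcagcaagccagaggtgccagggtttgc

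The 4 genes differed in their level outside kidney. Cltrn read 4075, 4835 and 6601 in kidney and at most 71.1 elsewhere. Pkhd1 read 642.6, 877 and 1132 in kidney, with liver closest at 77.9 to 126.2. Slc3a1 was the gene of the 4 with the highest liver level. Treh, a brush border enzyme, read 535.4, 750 and 1363 in kidney and at most 48.3 elsewhere, with all 3 male values above all 3 female values.

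Liver was the tissue that shared most genes with kidney. A gene was called shared where kidney and liver each exceeded hypothalamus, testis and ovary by at least 1 log2 unit with 6 adjusted p-values under 0.05. A gene could meet this rule and the kidney-high rule at once. This rule held for 309 genes (2.51% of probe sets), against 100 shared with ovary (0.818%), 56 with hypothalamus (0.591%) and 27 with testis (0.221%). The 6 shared genes furthest above the other 3 tissues differed between kidney and liver by less than 1 log2 unit. Cyp2j5, an arachidonic acid epoxygenase, read 6667, 6914 and 8293 in kidney and 5399, 6239 and 6512 in liver, and at most 15.2 elsewhere. Ugt3a2, Hgd (homogentisate dioxygenase of tyrosine breakdown), Glyat (glycine N-acyltransferase), Rdh16f2 and Slc27a2 (a fatty acid transporter with acyl-CoA synthetase activity) differed between kidney and liver by 0.58, -0.31, 0.70, 0.01 and 0.09, and from the other 3 tissues by at least 5.497.

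**Figure D2:**
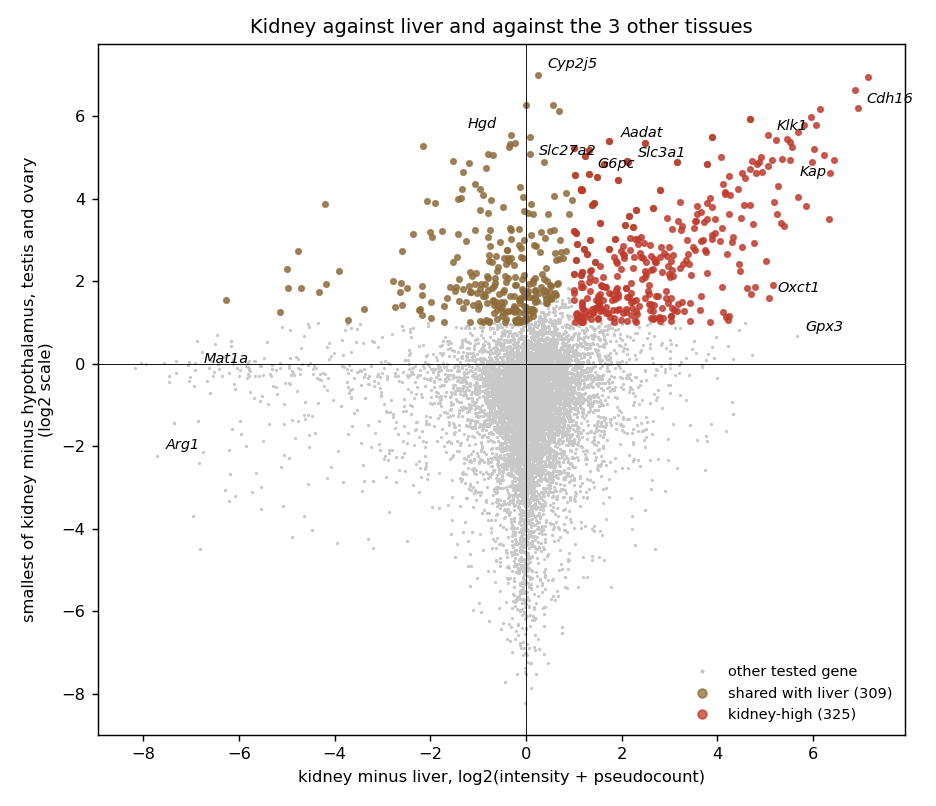
Each tested gene by its difference between kidney and liver (horizontal) and the smallest of its differences from hypothalamus, testis and ovary (vertical), both on the log2(intensity + pseudocount) scale; red, the 325 kidney-high genes, brown, the 309 shared with liver, with genes in both sets drawn red. Brown points are densest near 0 on the horizontal axis, and genes at the far left, such as Arg1 and Mat1a, are high in liver and not in kidney.

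Pathways of the shared genes were followed through lists. Of all tested genes 28.4% were higher, 43.95% lower, 3.03% kidney-high and 2.88% shared with liver. Of 39 tested genes of fatty acid oxidation 37 were higher in kidney than the mean of the 4 tissues and none lower, with a median of 1.37. Of these, 2 were kidney-high and 16 were shared with liver, and the median difference from liver alone was -0.17. Acadm, the medium-chain acyl-CoA dehydrogenase, read 8016, 8758 and 11050 in kidney and 6959, 8819 and 10300 in liver. The peroxisomal enzyme gene Ehhadh read 1915, 3914 and 5718 in kidney and 2188, 3609 and 4557 in liver, against at most 84.3 elsewhere. Oxct1, the mitochondrial enzyme that burns ketone bodies and that hepatocytes lack, was kidney-high with Acsm2, at 6415, 6911 and 7371 in kidney and 69.0 to 289.8 in liver.

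Of 21 tested genes of gluconeogenesis and fructose handling 17 were higher, 1 lower and 3 kidney-high, and 6 were shared with liver. G6pc, the catalytic subunit of glucose 6-phosphatase, exceeded even liver, at 5161, 6153 and 8791 in kidney and 1664, 2608 and 3299 in liver. Pck1, which encodes the cytosolic phosphoenolpyruvate carboxykinase, was level in both, at 2639, 4665 and 6049 in kidney and 2956, 4957 and 5403 in liver. Fbp1 was as bright in testis (9445 to 13060) as in kidney (11140 to 14030). Fbp2, its muscle-type relative, was kidney-high at 363.3 to 647 against at most 164.6. Ldhb was kidney-high with all 4 of its probe sets, at 9819 to 13470 in kidney, 520.8 to 693.3 in liver and 3504 to 5880 in the other tissues.

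Amino acid and folate metabolism held genes shared with liver and genes low in kidney. Of 59 tested, 48 were higher and 11 lower than the mean, 10 were kidney-high and 27 shared with liver. Miox, the myo-inositol oxygenase of the proximal tubule, read 12970, 14780 and 17190 in kidney and at most 749.1 elsewhere. Gatm, which makes the creatine precursor guanidinoacetate, read 4098, 5321 and 6277 in kidney and at most 1350 elsewhere. Dao read 3483, 4026 and 5296 in kidney and at most 120.4 elsewhere. The folate receptor Folr1 read 6179, 6919 and 7639 in kidney, with ovary closest at 1418 to 2175. Among the lower genes the urea cycle enzyme Arg1 read 5.598 to 23.3 in kidney and 12100 to 14940 in liver, and Mat1a, the hepatic methionine adenosyltransferase, 14.3 to 52.3 against 8892 to 10840. The urea cycle genes Otc (-1.43) and Cps1 (-1.36) were lower too, whereas Asl (2.55), which the kidney uses to make arginine, was higher.

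Detoxifying enzymes also held both kinds. Of 64 tested, 46 were higher, 10 lower, 14 kidney-high and 23 shared with liver, with a median of 1.30 against the 4 tissues and -0.41 against liver alone. Cyp4b1 read 6689, 9907 and 14120 in kidney and at most 736.6 elsewhere, and Akr1c21, a hydroxysteroid dehydrogenase, 2492, 6536 and 9622 against at most 415.3. The plasma glutathione peroxidase Gpx3 read 12490, 15740 and 17310 in kidney and was shared with ovary, at 7738, 9637 and 12650. Ces2a, a carboxylesterase, read 14.4 to 40.4 in kidney against 3982 to 6854 in liver.

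Mitochondrial genes were higher in kidney almost throughout, by a small amount. Of 67 tested genes of oxidative phosphorylation and the citrate cycle 66 were higher in kidney and none lower, against 28.4% of all tested genes higher, with a median difference of 0.81. The medians against liver, hypothalamus, testis and ovary were 0.37, 0.81, 0.99 and 0.96. The 4 kidney-high genes were Idh2 (2.84), Idh3g (1.87), the mitochondrial regulator Esrra (1.49) and the complex I subunit Ndufs1 (1.20). Ndufs1 read 3002, 3477 and 4430 in kidney and at most 2005 elsewhere. At the other end Cox6a1 differed by 0.24 (SE 0.06, adjusted p 0.0021) and was 0.12 lower than in liver. Sucla2, a subunit of succinyl-CoA ligase, gave 0.09 and did not pass the test, with testis at 5679 to 8935 against 3269 to 3734 in kidney. By contrast 1 of 25 genes of ribosomes and translation was higher and 4 were lower.

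**Figure D3:**
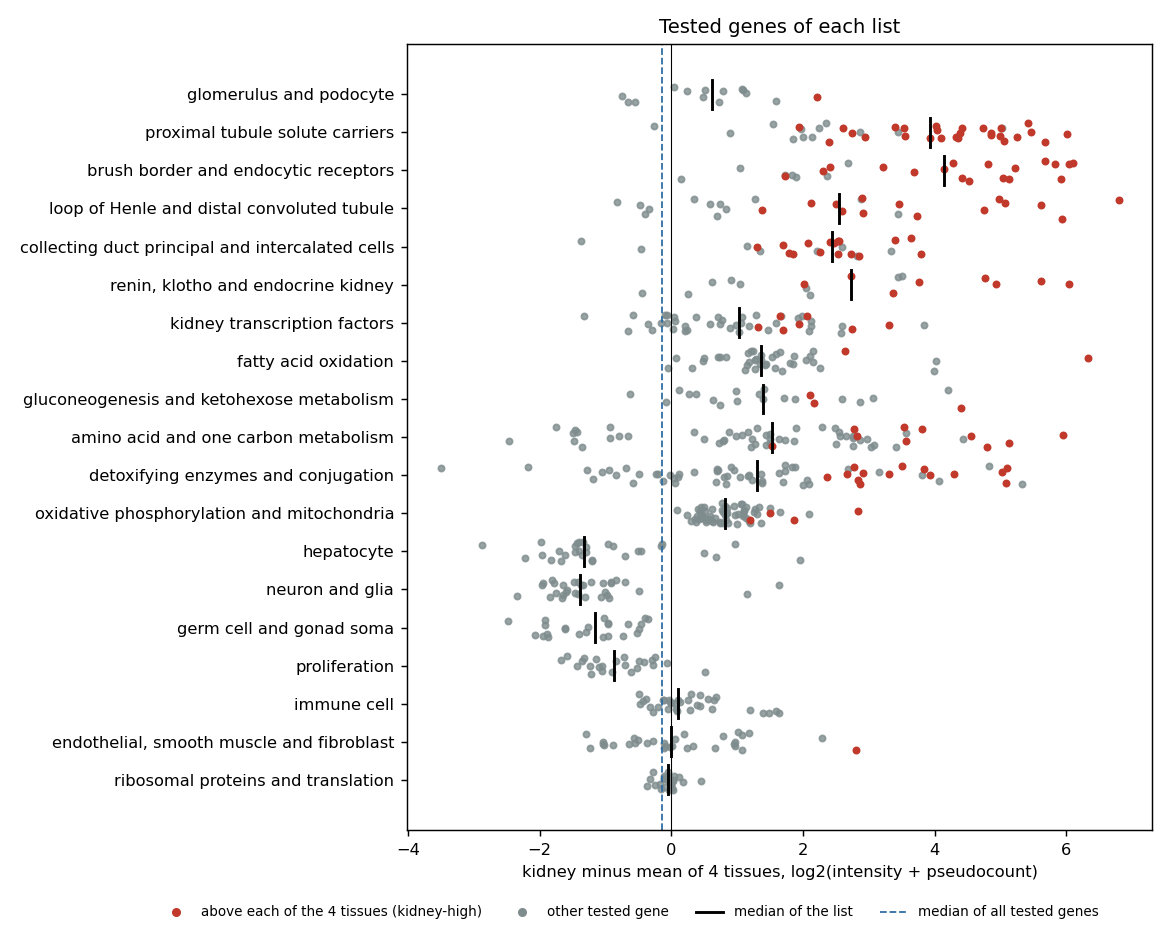
Difference of kidney from the mean of the 4 other tissues, on the log2(intensity + pseudocount) scale, for every tested gene of 19 lists; red points are kidney-high genes, black bars list medians and the dashed line the median of all tested genes. Tubule lists have medians of 2.44 to 4.15 and the mitochondrial list is tight about 0.81. The medians of the hepatocyte, neuron, germ cell and dividing cell lists lie below 0, with single members such as Ttr (1.96) and Mapt (1.63) above it. The mean of the 4 tissues includes those in which the hepatocyte, neuron, germ cell and dividing cell lists are high.

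Fewer genes paired kidney with the other organs. With hypothalamus it shared Pvalb, at 1250 to 3077 in kidney and 1466 to 1864 in hypothalamus, Mal, a lipid raft protein of tubule and myelin, at 2890 to 5319 and 3697 to 4273, the actin binder Dmtn at 1891 to 3029 and 2805 to 3169, and Mapt, the microtubule protein tau, at 419.5 to 678 and 2681 to 3258. With testis it shared Asb9, St6galnac2, Tmed6 and ccdc198, of which Tmed6 was closest between the organs, at 775.4 to 1149 in kidney and 618.3 to 1555 in testis. With ovary it shared the epithelial keratin Krt7, at 1134 to 1596 and 763.8 to 1057, the tetraspanin Tspan1, Gpx3 and the calcium-binding protein S100g. S100g read 2373 to 7063 in kidney, 287.5 to 355.7 in ovary and at most 6.40 in the 3 other tissues.

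Few genes were lower in kidney than in every other tissue. The 10 with the largest smallest difference and groups that do not overlap were Igfbp2, Clu, Serpina3n, Qpct, Mmd2, Cdh2, Amy1, Plxnc1, Unc119 and Pltp. Igfbp2, which binds insulin-like growth factors, read 106, 132 and 154.6 in kidney and at least 486.9 elsewhere, with liver at 6685 to 12070. Clu, the secreted chaperone clusterin, read 1038, 1756 and 3520 in kidney and at least 5974 in every other sample. Cdh2, the N-cadherin gene, read 132.6, 139 and 170.1 in kidney and at least 382.4 elsewhere, while the epithelial cadherins Cdh16 (6.70) and Cdh1 (1.87) were higher. All 6 kidney values lay below the 18 others for 0.901% of probe sets. Aldh1a1, the retinaldehyde dehydrogenase, met the rule with an overlap, since kidney male 1 read 1343 and female 1 read 791.1 against 198.6 to 254.6 in the other 4 kidney samples.

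Markers of other cell types gave the following, where 28.4% of all tested genes were higher and 43.95% lower. Calls are against the mean of 4 tissues, which holds the tissues where several of these lists are high. The 30 tested hepatocyte genes summed to 7580 to 15710 in kidney against 394500 to 456800 in liver. Their median difference was -5.81 against liver, and 0.10, 0.12 and 0.29 against hypothalamus, testis and ovary. Of the 30, 24 were lower than the mean of 4 tissues and none was kidney-high. The 4 higher genes were Ttr (1.96), Fga (0.97), Serpina1b (0.67) and Apoc3 (0.49). The 14 adrenal and steroidogenic genes summed to 6513 to 9189 in kidney against 49780 to 61470 in ovary, with Cyp11a1 at 12.1 to 200, Cyp21a1 higher by 0.62 and none kidney-high. The 18 genes of exocrine pancreas summed to 3624 to 6735 in kidney and 14670 to 72980 in liver, and of these Cela1 alone was higher. Adipocyte genes went both ways. Lpl (2.09), Fabp4 (2.05), Adipoq (1.24), Pnpla2 (0.57) and Cidea (0.23) were higher, Cidec (-0.39) and Lipe (-0.33) lower, and Retn (0.17) did not pass. Adipoq read 555.3 to 1401 in kidney, 4821 to 6510 in ovary and at most 122.4 in liver. Of 32 genes of vessels and stroma 13 were higher and 11 lower, and the capillary genes Plvap (2.80) and Emcn (2.28) led; Vwf of larger vessels was lower (-1.30). Of 24 genes of dividing cells none was higher and 22 were lower, with Cdk1 at 104.8 to 277.7 in kidney against 1942 to 2337 in testis. Medians of these genes were -0.05 against liver, 0.27 against hypothalamus, -2.26 against testis and -1.48 against ovary. The low calls thus reflect the gonads and not liver or hypothalamus. The list of neurons and glia had 30 of 32 lower and a median of -1.39. Against liver, hypothalamus, testis and ovary singly, its medians were -0.01, -4.45, -0.03 and -0.18. Germ cells and gonad soma had 24 of 24 lower and a median of -1.16, and singly -0.05, -0.23, -2.74 and -0.64. Housekeeping genes, 11 higher and 3 lower of 22, had a median of 0.19. Of 12 adipocyte and muscle genes 6 were higher and 5 lower, and of 6 erythroid genes 2 were higher, including Slc4a1, and 1 lower. The part of these cells in the counts above was not tested.

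Male and female kidney differed in some of the kidney-high genes. Of 325 kidney-high genes 26 differed between male and female kidney, 17 higher in male and 9 in female, or 8.0%, against 84 of 10742 tested genes, 0.782% (over probe sets, 0.719%). Among genes with a mean kidney intensity over 1000 the shares were 8.37% of 227 kidney-high genes and 1.27% of 2049 others. The difference between these shares was not itself tested. Same-numbered male and female kidney samples deviated together, with correlations of 0.549, 0.372 and 0.591. With the number as a replicate block in kidney only, a fit added after seeing the data, all 26 genes kept their call and 38 of 325 kidney-high genes and 128 of all tested genes differed between the sexes.

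The largest differences were in 3 genes higher in males. Ugt2b37, a glucuronosyltransferase, read 4497, 1082 and 3012 in male kidney and 19.8, 6.198 and 32.7 in female kidney, a difference of 5.24 (SE 0.29, adjusted p 8.96e-11). Cyp2j13 read 3823, 1100 and 3637 in male and 25.9, 82.7 and 55.8 in female kidney. The female values of both genes lay within the range of the other tissues, and the male values alone set them apart. Slc7a13, an amino acid transporter of the proximal straight tubule, read 7492, 4959 and 6440 in male and 645.5, 567.8 and 502.3 in female kidney, where it still exceeded the 198.8 of the highest other sample. Cyp4a12a, a fatty acid hydroxylase, was higher in male kidney by 2.34 and overlapped with liver, which reached 3758. The organic anion transporter Slc22a6 read 6237, 3465 and 6119 in male and 2274, 2200 and 2242 in female kidney. Ugt2b38 (2.26), the sphingolipid desaturase Degs2 (1.86), C1qtnf3 (1.32), the lysosomal sulfatase Galns (1.23), the aminoacylase Acy3 (1.05) and the lipid flippase Atp11a (1.04) differed by at least 2-fold. Tmigd1, Treh, Slc22a22, Ugt3a1, Cyp4b1 and Nudt8 differed by 0.98, 0.93, 0.86, 0.84, 0.82 and 0.71.

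Of the 9 genes higher in females Slc7a12 had the largest difference. This amino acid transporter gene read 370.9, 1526 and 563 in male and 4510, 2514 and 2725 in female kidney, a difference of -2.11 (male minus female, SE 0.31, adjusted p 0.00028). Ly6f read 102.2, 105.8 and 110.3 in male kidney, near the 107.2 of the highest other sample, and 337.4, 766.2 and 809.3 in female kidney. Aadat, the kynurenine aminotransferase II, read 2517, 1964 and 1643 in male and 6905, 5848 and 6540 in female kidney. Gsta2, a glutathione transferase, read 1930, 2290 and 1750 in male and 5292, 6040 and 4701 in female kidney. The others were Slc22a29, Mme, Arg2, Mfsd4a and Rhcg, with differences of -1.75, -0.80, -0.74, -0.73 and -0.65. Kap, whose name records its regulation by androgen, read 15750, 15810 and 16200 in male and 12660, 14820 and 17600 in female kidney, overlapping ranges near the top of the scale, with an adjusted p of 1.00.

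**Figure D4:**
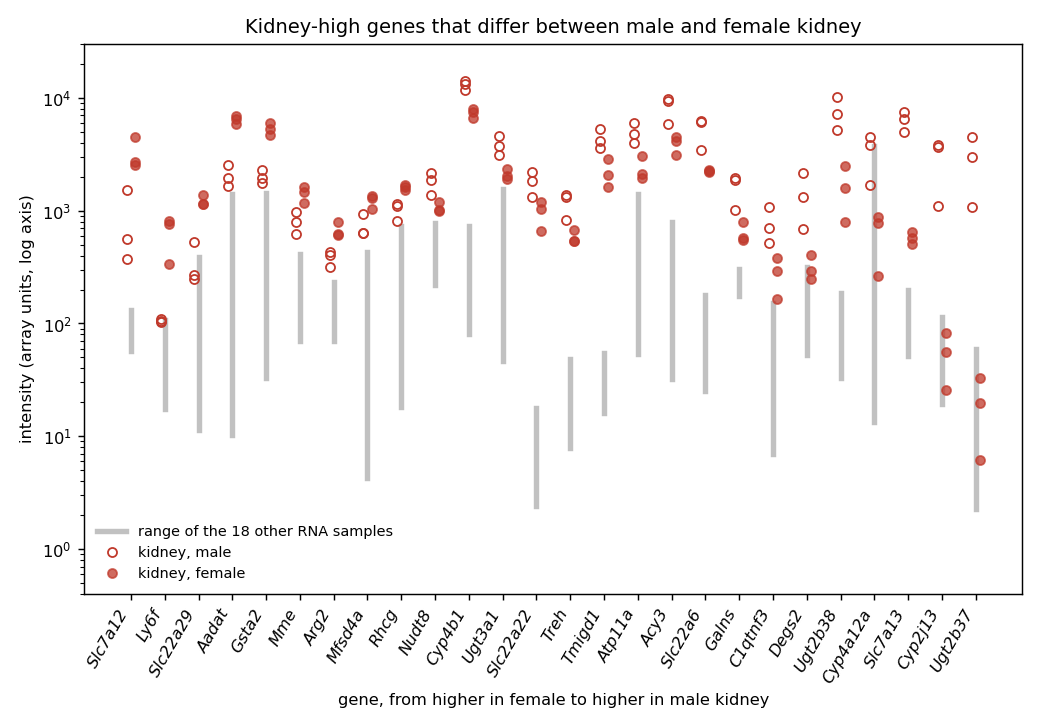
Intensity (array units, log axis) of the 26 kidney-high genes that differed between the sexes, ordered from higher in female to higher in male; open circles are the 3 male and filled circles the 3 female kidney samples, and grey bars the range of the 18 other RNA samples. At the right, the female values of Cyp2j13 and Ugt2b37 fall inside the grey bar.

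Whether kidney's difference from liver and hypothalamus itself depended on sex was tested as an interaction. It passed for 42 genes (61 probe sets, 0.337% of those tested), and for 14 of the 26 kidney-high genes above. The 26 were chosen on the male minus female kidney difference, which the interaction contains, so the 14 are not independent support. Ugt2b37 (5.06), Cyp2j13 (4.68), Slc7a13 (3.26), Ugt2b38 (2.13), Slc7a12 (-2.10) and Ly6f (-2.07) had the largest interactions. Cyp4a12a had an interaction of 0.42 with an adjusted p of 1.00. With the number as a replicate block in kidney only the count of 61 probe sets became 93, and the 14 genes kept their call. The count of 61 fell to 40 without kidney male 3 and rose to 111 without kidney male 2.

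The kidney samples also differed along their label numbers in both sexes. In 21 genes both samples numbered 1 lay at least 1 log2 unit below the other 4 kidney samples, and in 7 genes as far above them; for number 2 these counts were 1 and 0, and for number 3 they were 6 and 0, of 10742 genes. The genes named here were chosen after their values were seen. Among the 21 were genes of antigen presentation that interferon-gamma is known to induce. The class II gene H2-Ab1 read 892.9 and 1305 in the number 1 samples, male and female, and 5331 to 9372 in the other 4. H2-Eb1 read 1238 and 1763 against 5235 to 6998, the immunoproteasome subunit Psmb8 938.2 and 1046 against 4397 to 5907, and Psmb9 754 and 825.7 against 2255 to 3790. The chemokine Cxcl9, the guanylate-binding protein Gbp2 and the ubiquitin-like Ubd followed, the last at 164.1 and 90.7 against 1056 to 2489. Hdc, histidine decarboxylase, went the other way, at 818.8 and 752.7 against 10.7 to 32.3.

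The immune list moved with these samples, and their part in its counts was not tested. Its 33 tested genes summed to 21740 and 23310 in the number 1 samples and to between 54700 and 66000 in the others, against 14350 to 121800 over the other tissues. With all kidney samples 8 of the 33 were higher and 3 lower, against 28.4% and 43.95% of all tested genes. The class II genes H2-Aa (1.63) and Cd74 (1.58) led, and none of the 33 was kidney-high. Without both number 1 samples 15 were higher and none lower. The same omission left 476 kidney-high probe sets against 486, and 25 of 39 proximal tubule solute carriers kidney-high against 27. The kidney-high probe sets that differed between the sexes fell from 31 to 19. Among the 6 genes low in both samples numbered 3 were Pdk4, at 153.3 and 157 against 412.2 to 1055, and Txnip, at 1191 and 1503 against 3379 to 4508, both genes that respond to fuel supply.

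**Figure D5:**
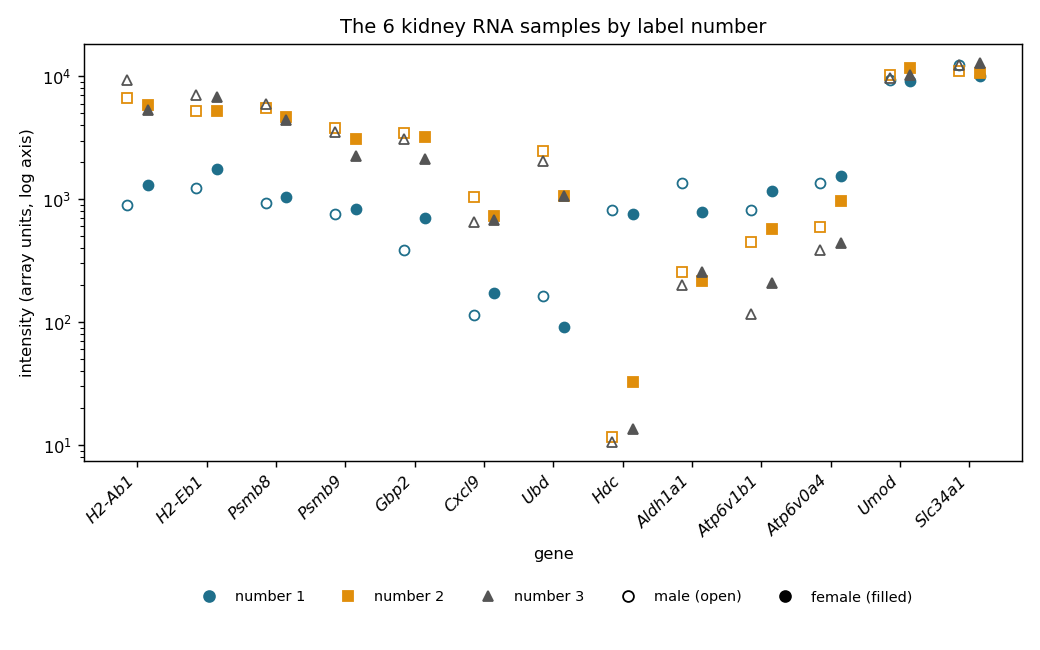
Intensity (array units, log axis) of 13 genes in the 6 kidney RNA samples, by label number (colour and shape) and sex (open male, filled female). The number 1 samples of both sexes are lowest for the 7 interferon-inducible genes at the left and highest for Hdc, Aldh1a1 and the 2 proton pump subunits, while Umod and Slc34a1 are level.

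Some kidney-high genes lie on the same chromosome with no other tested gene between them. In the order of tested genes along GRCm38.p6, 42 of the 325 formed 21 such pairs. Genes that were not tested were left out of this order and may lie within a pair. How many pairs would arise by chance was not tested. The pairs include Umod with Acsm2, Slc22a8 with Slc22a6, Slc17a3 with Slc17a1, Scnn1g with Scnn1b and the collagen genes Col4a4 with Col4a3, which share a promoter region. Others pair genes of unlike function, such as Cltrn with Car5b and Slc7a9 with Nudt19.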

How the data were processed

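The authors deposited linear array intensity values for 48 arrays, which have a 2% trimmed mean of 500.11 to 500.23 on each array. The labels used here do not name the software behind them. Each array was scaled to a 2% trimmed mean of 500, and log2(intensity + 48.28) was taken, 48.28 being the 20th percentile. The 2 arrays of each RNA sample were then averaged on the log2 scale, giving 24 RNA samples. Printed intensities are means of the 2 arrays on the linear scale. Probe sets above the 40th percentile in at least 3 RNA samples were kept, which left 18092. Of 22626 probe sets 20380 had 1 symbol, 691 several and 1555 none. Group means of 8 tissue and sex groups were fitted with limma 3.58.1 in R 4.3.3, with Benjamini-Hochberg adjustment over all tested probe sets. The fit was tested on simulated data before use. Plots and counts were made in Python 3.11.15, with matplotlib 3.10.9.

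The comparison, its gene lists and its rules were chosen with earlier results of these data known. Genes named by rule were the 3 markers, the 25 highest kidney-high and 10 highest kidney-low genes, the leading shared genes, up to 4 members of each list and up to 10 kidney-high genes that differed between the sexes; all other named genes were chosen after their values were seen. Deviations of same-numbered samples of kidney and other tissues correlated at -0.109 to 0.449, with all 3 over 0.1 in 5 of 12 pairs of groups. Every pair of kidney with liver was among the 5, at 0.13 to 0.449, and these samples were still fitted as unpaired. A replicate block for the numbers gave 459 probe sets shared with liver against 454, and 486 kidney-high against 486. Between male and female kidney all 3 correlations were 0.372 to 0.591 and the numbers pair the samples, a pairing that comes from the data and not the labels. The fit fixed at the start has no block, and blocked counts stand beside the sex results. The number of RNA samples, 3 per group, limits the precision. Alternatives were other pseudocounts, normalizations, filters, sample subsets and thresholds.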

Additional observations from a re-analysis of the deposited data

Results flagged for a closer look

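Among the 194 genes named here, 8 had 1 kidney sample apart from the other 5, by the ratio of its gap to the whole range (Dixon's 95% critical value). Chance sets about 1 in 20 groups apart, so 8 of 194 is near that rate. The genes were Kl (ratio 0.7515, female 2 at 2690), Cdh16 (0.7141, female 3 at 11140), Gpx3 (0.6767, female 1 at 12490), Slc27a2 (0.6683, female 1 at 10170), Gdpd3 (0.641, female 3 at 2516), Slc3a1 (0.6391, female 2 at 5697), Mep1b (0.6299, male 3 at 4709) and Aqp3 (0.6253, male 2 at 1013).

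Kidney's difference from liver and hypothalamus was unequal in males and females for 14 kidney-high genes (limma interaction, adjusted p under 0.05; male minus female). It was larger in males for Ugt2b37 (5.061, adjusted p 1.1e-08), Cyp2j13 (4.682), Slc7a13 (3.263), Ugt2b38 (2.131), Degs2 (1.897), Atp11a (1.372), C1qtnf3 (1.303), Galns (1.22), Cyp4b1 (1.061) and Tmigd1 (1.002). It was larger in females for Slc7a12 (-2.096), Ly6f (-2.073), Gsta2 (-1.532) and Aadat (-1.479).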

How the results depend on the processing

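Over 194 named genes and the alternatives run on their tissue difference, 8230 of 8337 values kept their direction and their side of the threshold, and 160 genes did so throughout. Counts below are of probe sets, with the value as reported in brackets. Kidney-low (27) became 62 and 7 with 0.25 and 4 times the pseudocount, 43 in males only, 80 in females only, 245, 62 and 88 without liver, hypothalamus or testis, and 1 at a log2 difference of 2. Kidney-high (486) became 1005 without liver and 207 at a log2 difference of 2. Shared with liver (454) became 937 in males only, 959 without ovary and 171 at a log2 difference of 2. Shared with hypothalamus (107) became 52 with 4 times the pseudocount, 383 in males only, 178 without liver, 396 without ovary and 23 at a log2 difference of 2. Shared with testis (40) became 22 with 4 times the pseudocount, 67 with median centring, 126 in males only, 101, 66 and 117 without liver, hypothalamus or ovary, and 8 at a log2 difference of 2. Shared with ovary (148) became 78 with 4 times the pseudocount, 224 in females only, 612 without liver, 427 without hypothalamus and 17 at a log2 difference of 2. Leaving out a tissue or a sex leaves fewer conditions to meet. Kidney-high and different between the sexes (31) became 20 with 0.25 times the pseudocount, 20 with the technical replicate arrays alone, 53 without liver, 13 at a log2 difference of 2 and 19 without both kidney samples numbered 1, a setting added after seeing the data. The interaction count (61) became 39 and 92 with 0.25 and 4 times the pseudocount; the cause of these pseudocount and centring changes was not tested.

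Leaving out 1 of the 24 RNA samples at a time gave 4660 to 4977 higher, 7512 to 8080 lower, 478 to 492 kidney-high, 21 to 36 kidney-low, 441 to 467 shared with liver, 104 to 108 with hypothalamus, 37 to 45 with testis and 144 to 152 with ovary. It gave 21 to 40 kidney-high probe sets that differed between the sexes, and 40 (without male 3) to 111 (without male 2) interactions. The 6 omissions of a kidney sample gave 4660 to 4760 higher and 7512 to 7693 lower. A replicate block for the label numbers gave 4969 higher, 8065 lower, 486 kidney-high, 27 kidney-low, 459 shared with liver, 35 kidney-high and different between the sexes, and 74 interactions. A replicate block in kidney only, added after seeing the data, gave 47 kidney-high and different between the sexes and 93 interactions. Across tissues, in 26 of 36 same-numbered pairs the same number correlated best, a hint from the data and not the design.

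The difference from the mean of 4 tissues changed sign for Alb (0.01425 with quantile normalization, 1.501 without liver, and -0.51 to 0.22 on leaving out 1 kidney sample, above 0 without male 2 and without female 3) and for Otc (0.13) and Cps1 (0.14) without liver. Krt18 gave 0.02106 in males only, 0.35 without liver and 0.12 without ovary. Cxcl9 gave -0.17 in males only and -0.21 without ovary, Hdc 0.20 and 0.23, and Sucla2 -0.17, -0.17 and, without hypothalamus, -0.0665. Without hypothalamus Snap25 gave 0.02837 and Ctsl -0.27. Apoc3 gave -0.09439 and Serpina1b -0.1534 in females only, Apoc3 gave -0.07933 without hypothalamus, and without testis they gave -0.1296 and -0.206. The cause was not tested, beyond the tissue left out.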
